A study of Mus musculus with 18 samples.

Results

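The ATF4 amino acid response is described here through 40 genes of GC1spg cells, a mouse line used as a model of spermatogonia. They were taken by gene name from the deposited table, where each of the 40 names has 1 row of 31643 genes. They comprise 8 stress transcription factors and regulators, 11 enzymes of amino acid synthesis and one-carbon metabolism, 8 amino acid transporters, 11 cytosolic tRNA synthetases and 2 secreted or surface proteins. The study exposed the cells to busulfan (Bu), an alkylating drug that damages the germ cell lineage, and poly(A) RNA was sequenced in 18 libraries. There were 4 libraries of cells with siTGR5 and Bu, 5 with siTGR5 and DMSO, 4 with siGFP and Bu, and 5 with siGFP and DMSO. siTGR5 is a small interfering RNA against the bile acid receptor TGR5 (gene Gpbar1), siGFP is a control siRNA, and DMSO is the vehicle. All groups therefore carry an siRNA. Bu was used at 200 µM for 24 h in sequenced GC1spg cells for which no siRNA is named, and the dose and time for siTGR5 cells are not given in the sources used here. The paper's cell line methods also describe 12 h of starvation before DMSO or Bu, without naming what was withheld. Whether the sequenced cells were starved is not stated there, and the part of such a step in the levels of these genes was not tested. GC1spg is an immortalized line described as of germ cell origin, and its levels of cell type markers are given below. Nothing in the labels ties the replicates to separate cultures, and the p-values therefore speak only of how the sequenced samples vary, in part perhaps for technical reasons.

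ATF4 is a transcription factor whose translation rises when the initiation factor eIF2 is phosphorylated, as happens when amino acids run short, when proteins misfold in the endoplasmic reticulum or when mitochondria are stressed. It binds, with C/EBP partners, to a short element in its target genes and raises the transcription of enzymes that make amino acids, of transporters that import them and of the synthetases that charge tRNAs. Its own mRNA is a poor guide to its protein, which was not measured here.

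The C/EBP-ATF response element that ATF4 and its partners bind was searched in promoters as TGATGNAA, on both strands, in windows of 250 bases before and 50 bases after each RefSeq start site (build GRCm38.p6). Promoters were found for 32 of the 40 members, and 13 of these 32 (40.6%) held the motif, against 4.51% of the 27025 genes with a promoter in the same table. The members were listed as genes of the ATF4 response, so their higher share is a description and no independent result. Members without a promoter entry were not searched. The windows of some members with a match that are described below are printed with the motif in capitals and 11 bases on either side, 5′ to 3′ on the strand where the motif reads as written. The Trib3 window lies at chr2:152344028-152344057 (plus strand) and that of Chac1 at chr2:119351038-119351067 (minus strand). Those of Asns, Fgf21 and Vldlr lie at chr6:7693214-7693243 (minus strand), chr7:45615611-45615640 (plus strand) and chr19:27216809-27216838 (minus strand).
Trib3: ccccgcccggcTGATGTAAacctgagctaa
Chac1: cctggcaggagTGATGCAAcggcagggaag
Asns: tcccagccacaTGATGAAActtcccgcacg
Fgf21: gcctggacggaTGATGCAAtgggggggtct
Vldlr: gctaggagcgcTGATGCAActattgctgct
In the printed windows the variable base was C in Chac1, Fgf21 and Vldlr, A in Asns, and T in Trib3. Aars, Nupr1, Pycr1, Slc1a4, Gars, Iars, Tars and Yars also held a match. Vldlr had 2 promoters, 1 of them with a match. Atf4, Psat1, Mthfd2, Cbs and Slc3a2, also described below, were searched and held none. A match of these letters describes the window and shows no binding.

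The libraries held 24745523 to 49638166 counts. Levels are given as CPM, counts per 1000000 counts of a library after TMM scaling over all 18 libraries. Differences are log2 fold changes with their standard error (SE) from edgeR's quasi-likelihood test across all genes, and a gene was called at a Benjamini-Hochberg adjusted p under 0.05. Of 13 spermatogonial markers in the table, 3 had a median of at least 1 CPM, while Ddx4 and Dazl, which define germ cells, were at or near 0. Of 8 Sertoli markers, 6 reached that level. Counts of Gpbar1 were low, at 4 to 18 in siTGR5 cells and 13 to 40 in siGFP cells with DMSO, and at 8 to 15 and 8 to 17 under Bu. Its difference was called in DMSO (log2 -0.99) and not under Bu (log2 -0.38), so that the Bu libraries labelled siTGR5 showed no called loss of their target. In 6 libraries, spread over the 4 groups, transcripts of rod photoreceptors summed to 2.30 to 19.3 CPM. A list called nuclear-retained here mixes noncoding RNAs such as Malat1 and Neat1 with mRNAs of protein-coding genes such as Nktr. Its sum is therefore no measure of nuclear RNA alone. These transcripts summed to 2994 to 3400 CPM in siTGR5 cells with Bu and 3374 to 4666 CPM in siTGR5 cells with DMSO. In siGFP cells they summed to 2497 to 3037 CPM with Bu and 3341 to 3683 CPM with DMSO. Whether this sum follows RNA quality or the treatment was not tested, and no direct measure of RNA quality was used here. In bulk RNA, fewer cells that express a gene and less of its RNA per cell cannot be told apart.

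Bu went with a lower level of part of the amino acid response in siGFP cells and with a higher level of another part in siTGR5 cells. In siTGR5 cells 13 of the 39 tested members rose and 3 fell under Bu, where 15.5% of all 14372 genes tested rose and 15.2% fell (30.7% called). In siGFP cells 1 rose and 11 fell, where 14.3% of 14304 genes rose and 13.8% fell (28.1% called). The median log2 fold change over the members was 0.09 in siTGR5 cells and -0.09 in siGFP cells, beside 0.0037 and 0.0031 over all genes tested. Above zero stood 30 of the 39 members in siTGR5 cells and 8 of 39 in siGFP cells, against 50.9% and 50.8% of all genes. The members were chosen with earlier results of these data known, so their shares beside those of all genes, here and below, are descriptive. Over the members, log2 fold changes ran from -0.33 to 0.44 in siTGR5 cells and from -0.87 to 0.14 in siGFP cells. Slc7a3, a cationic amino acid transporter, was at 1 to 14 counts a library and was not tested in either. Without the libraries with photoreceptor transcripts the counts were 10 higher and 2 lower in siTGR5 cells, and 0 higher (2 at an unadjusted p under 0.05) and 14 lower in siGFP cells. These fits had fewer libraries, with 2 left out in siTGR5 cells and 4 in siGFP cells. The part of that loss in calls that ended, here and below, was not tested. Of 19 transcripts tested from the nuclear-retained list, 2 rose and 8 fell in siTGR5 cells and 14 fell in siGFP cells. Their part in the members' values was not tested.

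**Figure D1:**
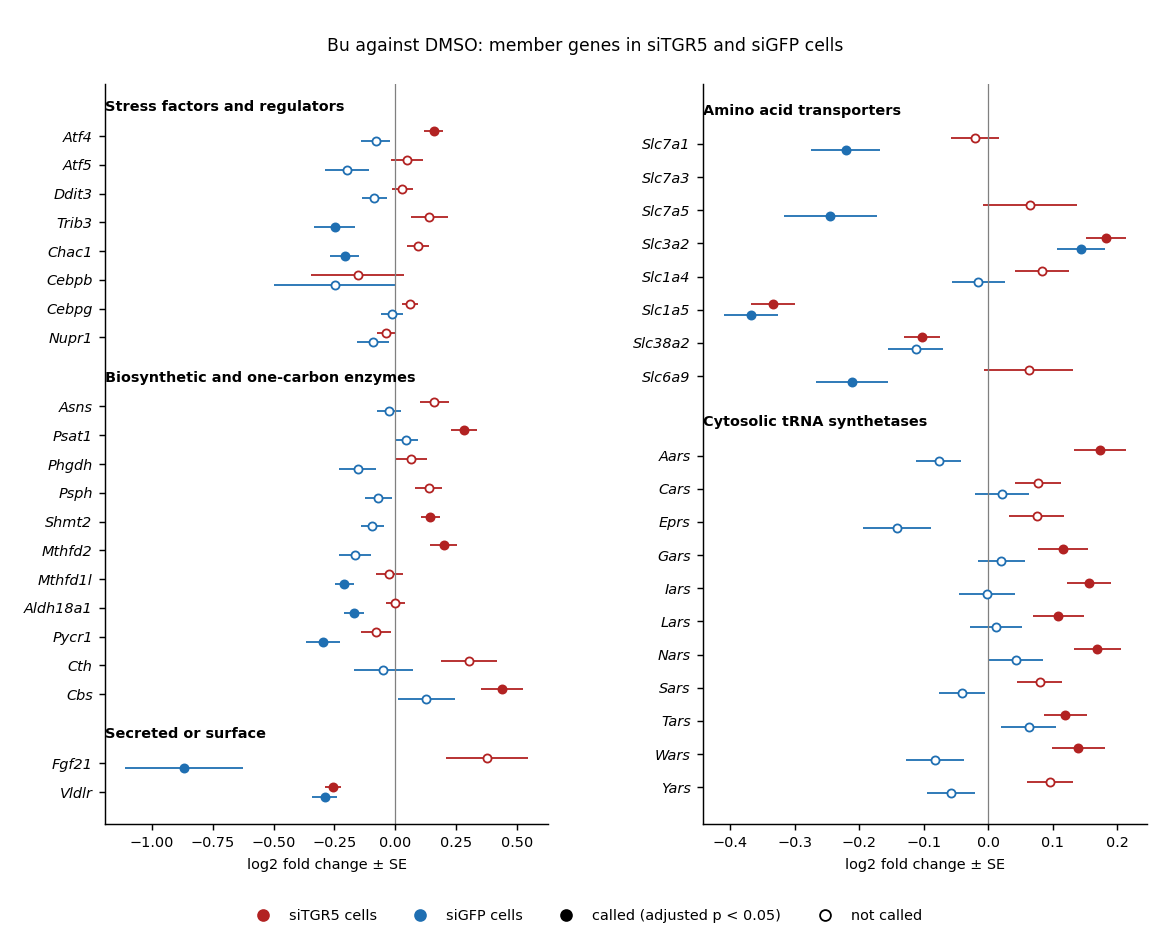
Log2 fold change (± SE) of Bu against DMSO for the members, by role, in siTGR5 cells (red, upper point of each pair) and siGFP cells (blue, lower point); filled points passed an adjusted p under 0.05, Slc7a3 was not tested, and the horizontal scales of the panels differ. All 11 tRNA synthetases lie above zero in siTGR5 cells, and Slc1a5 and Vldlr lie below zero in both.

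Among the regulators, Atf4 rose under Bu in siTGR5 cells, whereas Trib3 and Chac1 fell in siGFP cells. Atf4 (ENSMUSG00000042406, chromosome 15, 80255184 to 80257541) stood at 426, 465, 453 and 472 CPM in siTGR5 cells with Bu, against 390.1, 441, 413, 393 and 403 CPM with DMSO. Only 1 DMSO library reached into the Bu range, and the log2 difference was 0.16 ± 0.04 (adjusted p = 0.00464). In siGFP cells it was at 371, 421, 404 and 459 CPM with Bu and at 437, 425, 479.9, 407 and 447 CPM with DMSO, groups that overlapped widely (log2 -0.08 ± 0.06, adjusted p = 0.331).

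Trib3, a pseudokinase that curbs ATF4 and CHOP in a feedback loop, was at 30.3, 31.5, 31.1 and 38.4 CPM in siGFP cells with Bu, against 38.8, 37.6, 45.4, 33.0 and 40.8 CPM with DMSO. Only Bu replicate 4 overlapped, lying above DMSO replicates 2 and 4 (log2 -0.25 ± 0.08, adjusted p = 0.0398), and the call ended when any of 7 of the 9 libraries was left out (highest adjusted p 0.111). With siTGR5 its values were 24.9, 33.0, 27.0 and 30.4 CPM under Bu and 26.3, 30.0, 25.8, 25.9 and 23.1 CPM in DMSO, which did not pass the test (log2 0.14 ± 0.08, adjusted p = 0.189). Chac1, an enzyme that breaks down glutathione, was at 97.7, 104, 107 and 115 CPM in siGFP cells with Bu and at 126, 123, 138, 113 and 116 CPM with DMSO. It was lower in Bu with 1 library of overlap on each side (log2 -0.21 ± 0.06, adjusted p = 0.0165), a call that ended without siGFP Bu replicate 1 (adjusted p = 0.055). In siTGR5 cells Chac1 was at 104, 111, 115 and 115 CPM with Bu and at 104, 117, 103, 100.2 and 98.9 CPM with DMSO, with no call (adjusted p = 0.13).

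Ddit3, which encodes the pro-apoptotic factor CHOP, did not pass the test under Bu with either siRNA. It was at 50.1, 49.7, 51.0 and 53.6 CPM in siTGR5 cells with Bu, against 49.1, 50.5, 47.2, 49.9 and 54.7 CPM with DMSO (log2 0.03 ± 0.04). In siGFP cells the values were 37.8, 42.3, 39.5 and 43.6 CPM with Bu and 41.8, 41.9, 42.6, 43.4 and 47.3 CPM with DMSO (log2 -0.09 ± 0.05). Bu and DMSO libraries overlapped in both, and the siTGR5 libraries lay above nearly all siGFP ones. Atf5, a close relative of Atf4, Cebpb and Cebpg, which encode C/EBP partners of ATF4, and Nupr1, a small stress-induced nuclear protein, were called in neither Bu comparison. Their log2 fold changes ran from -0.15 to 0.06 in siTGR5 cells and from -0.25 to -0.01 in siGFP cells. About 20.7% of the exon bases of Cebpb overlap the gene Tmem189 on the opposite strand, and whether the counting used strand is not given in the sources used here.

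**Figure D2:**
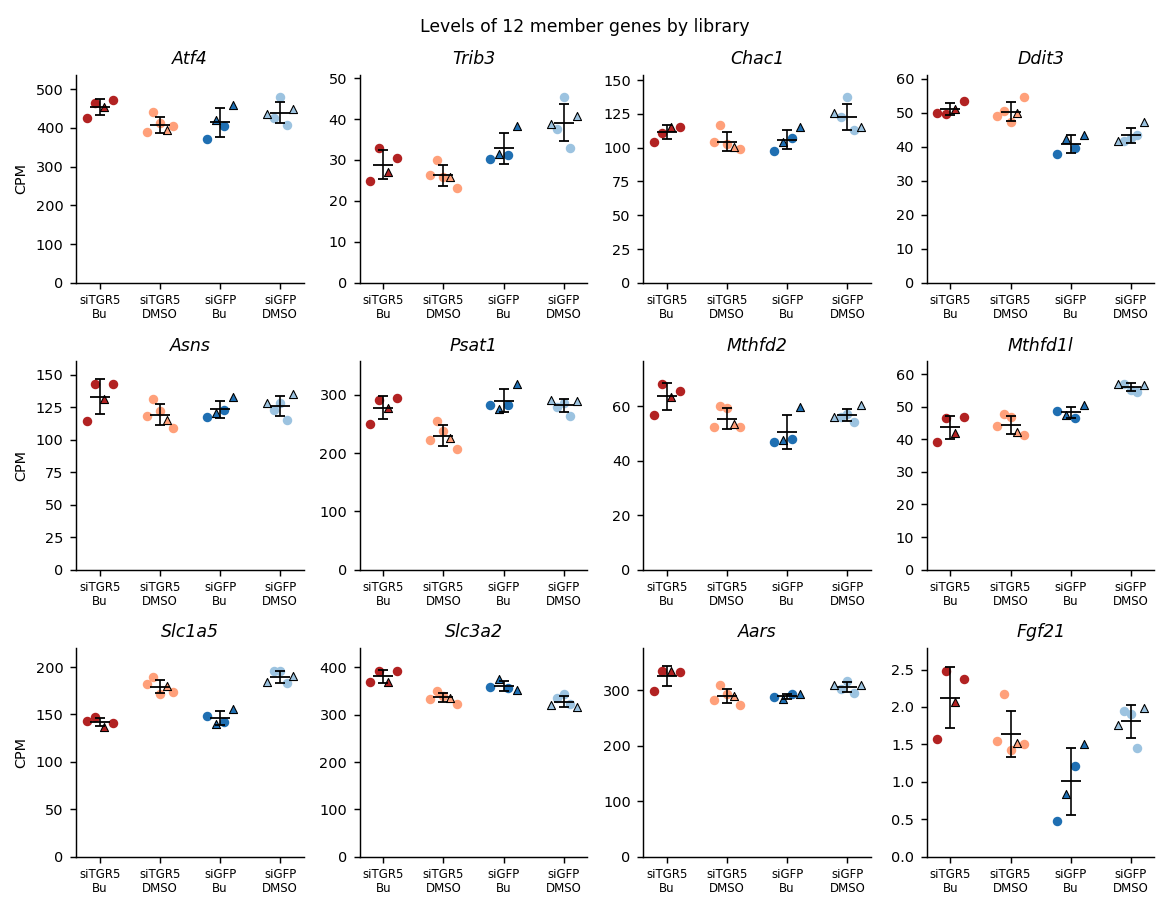
CPM of 12 members in each library of the 4 groups (points, replicates in order of number from left to right; triangles mark libraries with photoreceptor transcripts; bars show mean ± SD, n = 4 with Bu and 5 with DMSO). Slc1a5 is lower and Slc3a2 higher in every Bu library than in every DMSO library of the same siRNA, and Fgf21 is lowest in siGFP cells with Bu.

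Of the enzymes, 4 rose under Bu in siTGR5 cells (Psat1, Shmt2, Mthfd2 and Cbs) and 3 fell in siGFP cells (Mthfd1l, Aldh18a1 and Pycr1), with no enzyme called in both. The called shares of 36.4% and 27.3% lay near the 30.7% and 28.1% of all genes tested. Psat1, the aminotransferase of serine synthesis, was at 250.4, 291, 278 and 294 CPM in siTGR5 cells with Bu, against 222, 255, 239, 226 and 207 CPM with DMSO. A single DMSO library lay above the lowest Bu library (log2 0.28 ± 0.05, adjusted p = 0.000777). In siGFP cells Psat1 was at 282, 276, 283 and 319 CPM with Bu and at 292, 279.6, 287, 263 and 289 CPM with DMSO, with a log2 difference of 0.05 ± 0.05. Phgdh and Psph, which catalyse the other steps of that pathway, were not called under Bu in either siRNA.

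Cbs, the first enzyme of transsulfuration, had the largest rise among called members in siTGR5 cells, at 134.6% of the DMSO mean. It was at 6.90, 7.71, 6.02 and 6.68 CPM with Bu and at 5.38, 5.47, 4.71, 4.96 and 4.85 CPM with DMSO, from 149 to 267 counts a library. The groups did not overlap (log2 0.44 ± 0.09, adjusted p = 0.000998). In siGFP cells Cbs was at 6.02, 5.38, 6.46 and 4.66 CPM with Bu and at 5.55, 5.75, 3.95, 5.26 and 5.29 CPM with DMSO, groups that overlapped (adjusted p = 0.452). Cth, which follows it in the same pathway, had log2 0.30 ± 0.11 in siTGR5 cells, just outside the threshold (adjusted p = 0.054), and -0.05 ± 0.12 in siGFP cells. Asns, the asparagine synthetase that is a classical ATF4 target, was at 114, 143, 131 and 143 CPM in siTGR5 cells with Bu and at 118, 131, 122, 115 and 109 CPM with DMSO. Its first Bu library lay among the DMSO libraries while the others lay above all of them, replicate 3 only just (log2 0.16 ± 0.06, adjusted p = 0.0508; 0.0401 with DESeq2). In siGFP cells Asns was at 118, 120.1, 123 and 133 CPM with Bu and at 128, 123, 128, 115 and 135 CPM with DMSO, groups that overlapped (log2 -0.03 ± 0.05).

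The mitochondrial folate enzymes Mthfd2 and Shmt2 rose in siTGR5 cells, and Mthfd1l fell in siGFP cells. Mthfd2, which oxidizes methylene-tetrahydrofolate in mitochondria, was at 57.0, 68.3, 63.5 and 65.8 CPM in siTGR5 cells with Bu, against 52.3, 60.0, 59.5, 53.6 and 52.3 CPM with DMSO (log2 0.20 ± 0.05, adjusted p = 0.0105). Its first Bu library lay among the DMSO libraries and the other 3 above them. In siGFP cells it was at 46.7, 47.7, 48.0 and 59.9 CPM with Bu and at 56.3, 56.3, 57.1, 54.4 and 60.5 CPM with DMSO, where 3 Bu libraries lay below all DMSO libraries and the 4th among them (log2 -0.17 ± 0.07, adjusted p = 0.0727). Mthfd1l, which releases formate from the same pathway, was at 48.7, 47.3, 46.4 and 50.4 CPM in siGFP cells with Bu and at 57.0, 56.9, 55.1, 54.4 and 56.5 CPM with DMSO. Every Bu library was below every DMSO library (log2 -0.21 ± 0.04, adjusted p = 0.00124). In siTGR5 cells, with 39.3, 46.4, 42.0 and 46.9 CPM under Bu and 44.1, 47.7, 46.9, 42.3 and 41.4 CPM in DMSO, the Mthfd1l groups overlapped (log2 -0.03 ± 0.06). Shmt2, which makes glycine from serine in mitochondria, rose in siTGR5 cells (log2 0.14 ± 0.04, adjusted p = 0.0109). The rise of Shmt2 ended without siTGR5 Bu replicate 4 (adjusted p = 0.0553), and that of Mthfd2 without siTGR5 Bu replicate 2 (0.0514) or without the libraries with photoreceptor transcripts (0.061). The proline synthesis enzymes Aldh18a1 and Pycr1 fell in siGFP cells, by log2 -0.17 ± 0.04 and -0.30 ± 0.07, and were at 0.00 and -0.08 in siTGR5 cells.

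Among the transporters, Slc1a5 fell and Slc3a2 rose under Bu with both siRNAs. Slc1a5 (ENSMUSG00000001918, chromosome 7, 16781340 to 16798274), the main glutamine importer ASCT2, was at 143, 147, 137 and 141 CPM in siTGR5 cells with Bu, against 182, 189.6, 171, 180.4 and 174 CPM with DMSO. In siGFP cells it was at 149, 140.3, 142 and 156 CPM with Bu and at 184, 196, 196, 183 and 190.3 CPM with DMSO. Bu and DMSO libraries did not overlap in either, and the log2 differences were -0.33 ± 0.03 (adjusted p = 1.36e-06) and -0.37 ± 0.04 (adjusted p = 1.96e-05). The exact permutation p over libraries was 0.00794 in each, the smallest that 126 splits can give. The difference between these effects was 0.03 ± 0.05 and was not called.

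Slc3a2, the heavy chain that carries several amino acid exchangers to the surface, rose under Bu with both siRNAs. It was at 369, 392, 369.7 and 393 CPM in siTGR5 cells with Bu, against 334, 349.6, 339.6, 336 and 324 CPM with DMSO, and at 359.5, 375, 356 and 352 CPM in siGFP cells with Bu, against 321, 335, 344, 322 and 317 CPM with DMSO. All Bu libraries exceeded all DMSO libraries of the same siRNA, with log2 0.18 ± 0.03 and 0.14 ± 0.04; the siGFP call ended without the libraries with photoreceptor transcripts (adjusted p = 0.103). Slc7a5, the light chain that pairs with Slc3a2 to import leucine, fell in siGFP cells (log2 -0.25 ± 0.07), a call that ended without siGFP Bu replicate 1, 2 or 3 (highest adjusted p 0.0542), and was at 0.06 ± 0.07 in siTGR5 cells.

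Slc38a2, a sodium-coupled neutral amino acid transporter, was at 699, 693, 678 and 699 CPM in siTGR5 cells with Bu and at 733, 737, 778, 727 and 753 CPM with DMSO, without overlap (log2 -0.10 ± 0.03, adjusted p = 0.00969). In siGFP cells the values were 682, 642, 687 and 709.8 CPM with Bu and 784, 724, 689, 748 and 745 CPM with DMSO, where 1 Bu library reached into the DMSO range (log2 -0.11 ± 0.04, adjusted p = 0.0647). Its effect was thus of like size with both siRNAs and passed the threshold in siTGR5 cells only, with a difference of 0.01 ± 0.05. Without the libraries with photoreceptor transcripts the siTGR5 call ended as well (adjusted p = 0.0562). Slc7a1, which carries arginine and lysine, and Slc6a9, a glycine transporter, fell in siGFP cells by log2 -0.22 ± 0.05 and -0.21 ± 0.06 and were at -0.02 and 0.06 in siTGR5 cells. About 30.2% of the exon bases of Slc6a9 overlap genes on the opposite strand. Slc1a4, a carrier of alanine and serine, was called in neither.

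Of the cytosolic tRNA synthetases, which attach amino acids to their tRNAs, a majority rose under Bu in siTGR5 cells and none was called in siGFP cells, while the difference between siRNAs was called for Aars alone. In siTGR5 cells 7 of 11 rose (Aars, Gars, Iars, Lars, Nars, Tars and Wars, for alanine, glycine, isoleucine, leucine, asparagine, threonine and tryptophan) and all 11 were above zero, with log2 fold changes from 0.07 to 0.17. In siGFP cells edgeR called 0 of 11 (2 lower at an unadjusted p under 0.05, and 2 lower with DESeq2). The 11 had a median of -0.0018 there and a range from -0.14 to 0.06. Of all genes tested, 30.7% were called in siTGR5 cells and 28.1% in siGFP cells. Aars (ENSMUSG00000031960, chromosome 8, 111033144 to 111057664) was at 299.8, 336, 335 and 334 CPM in siTGR5 cells with Bu, against 282, 309.7, 294, 291 and 274 CPM with DMSO. The first Bu library stood apart from the other 3, which were above every DMSO library (log2 0.17 ± 0.04, adjusted p = 0.0032). In siGFP cells Aars was at 288, 284, 293 and 293 CPM with Bu and at 309.5, 302, 317, 294 and 309 CPM with DMSO. These groups did not overlap (exact permutation p = 0.0159), but edgeR's adjusted p was 0.116.

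Wars was at 51.5, 56.9, 53.8 and 55.7 CPM in siTGR5 cells with Bu, against 48.3, 51.8, 50.5, 50.5 and 46.6 CPM with DMSO (log2 0.14 ± 0.04, adjusted p = 0.0159). In siGFP cells it was at 45.8, 44.3, 44.4 and 48.3 CPM with Bu and at 49.2, 47.3, 51.5, 46.0 and 48.9 CPM with DMSO, with overlap and no call. Iars and Tars had Bu libraries that were all above the DMSO libraries in siTGR5 cells. The calls of Gars and Lars were the least stable and ended when any of 6 libraries (Gars) or 7 libraries (Lars) of the 9 was left out. That of Tars ended without siTGR5 Bu replicate 4 (adjusted p = 0.0618), and that of Wars without siTGR5 Bu replicate 2 or 4 (highest adjusted p 0.0705). Without the libraries with photoreceptor transcripts 5 of 11 synthetases were called higher in siTGR5 cells and all 11 stayed above zero, at a median of 0.11.

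A further 12 cytosolic synthetases and synthetase complex proteins that are no members were set beside them. Of these, 10 rose in siTGR5 cells and 6 in siGFP cells, with none lower, at medians of 0.13 and 0.11. Qars, for glutamine, had log2 0.18 ± 0.03 in siTGR5 cells and 0.24 ± 0.03 in siGFP cells. Rars, for arginine, had 0.19 ± 0.04 and 0.18 ± 0.04, and Eef1e1, a scaffold protein of the synthetase complex, 0.20 ± 0.05 and 0.27 ± 0.06. The median difference between siRNAs was 0.0065 in this list, against 0.13 over the member synthetases. Of 16 mitochondrial synthetases tested, 1 rose and 4 fell in siTGR5 cells, and 1 rose in siGFP cells. Called shares were 83.3% in siTGR5 cells and 50% in siGFP cells for the 12 cytosolic genes. For the mitochondrial ones they were 31.2% and 6.25%, beside 30.7% and 28.1% of all genes tested.

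The secreted and surface members fell in siGFP cells. Fgf21 (ENSMUSG00000030827, chromosome 7, 45613886 to 45615490), a stress hormone, was the member with the largest fold change under Bu, from 18 to 96 counts a library. It was at 0.473, 0.831, 1.21 and 1.51 CPM in siGFP cells with Bu and at 1.76, 1.95, 1.90, 1.45 and 1.99 CPM with DMSO. The Bu mean was 55.5% of the DMSO mean, and the Bu libraries ranged over more than a factor of 3 (log2 -0.87 ± 0.24, adjusted p = 0.0148). In siTGR5 cells it was at 1.58, 2.49, 2.06 and 2.37 CPM with Bu and at 1.55, 2.18, 1.42, 1.51 and 1.51 CPM with DMSO, which overlapped and was not called (log2 0.38 ± 0.17, adjusted p = 0.102).

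Vldlr, the receptor for very-low-density lipoprotein, fell with both siRNAs. Its level was 214, 211, 215 and 207 CPM in siTGR5 cells with Bu, against 268, 249, 247, 256 and 247 CPM with DMSO. In siGFP cells it was 229, 195, 204 and 228 CPM with Bu and 261, 262, 249, 262 and 279 CPM with DMSO. No library overlapped between Bu and DMSO in either, and the log2 differences were -0.26 ± 0.03 (adjusted p = 8.32e-06) and -0.29 ± 0.05 (adjusted p = 0.000758), with a difference between siRNAs of 0.04 ± 0.06. Over all members, Bu and DMSO libraries did not overlap in 8 in siTGR5 cells and 7 in siGFP cells, where 24.9% and 23.6% of all genes did not.

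Whether Bu acted differently with the siRNAs was tested as the difference of its effects over all 18 libraries. All 40 members had a difference above zero, that is, a Bu effect more positive in siTGR5 than in siGFP cells, where 51.4% of all 14783 genes tested did. The 40 include Slc7a3, at 1 to 14 counts a library, which was tested in this contrast only. Since the members were chosen with earlier results of these data known, this contrast describes them and is no test. The median was 0.19 over the members and 0.0045 over all genes, and by role it ran from 0.13 for synthetases and 0.15 for transporters to 0.18 for regulators, 0.22 for enzymes and 0.64 for the 2 secreted or surface members (Fgf21 at 1.25 and Vldlr at 0.04). Only 3 members were called, all higher, where 0.724% of all genes were called higher and 0.649% lower (1.37% called). These were Aars (0.25 ± 0.05, adjusted p = 0.0186), Mthfd2 (0.37 ± 0.09, adjusted p = 0.0477) and Fgf21 (1.25 ± 0.30, adjusted p = 0.0416).

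Chac1 (0.30 ± 0.08, adjusted p = 0.0599), Shmt2 (0.24 ± 0.06, adjusted p = 0.0669) and Wars (0.22 ± 0.06, adjusted p = 0.0693) were next in order of p and did not pass. All members were read from the same libraries and are not independent of each other. Without the 6 libraries with photoreceptor transcripts 38 of 40 members were above zero at a median of 0.18, but edgeR called 0 members (19 higher at an unadjusted p under 0.05) and 12 of all genes in place of 203. Leaving out siTGR5 Bu replicate 2, 3 or 4 also left 0 members called by edgeR (19 to 22 higher at an unadjusted p under 0.05). The call of Aars ended without any of these 3 libraries, that of Mthfd2 without any of 15 of the 18 and that of Fgf21 without any of 13. Still, 38 to 40 members stayed above zero whichever library was left out. Transcripts of the nuclear-retained list moved in the same direction, with 18 of 19 above zero at a median of 0.21 and none called. Their part in the members' difference was not tested.

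By library, the mean log2 deviation of the 40 members from their 18-library means ran from -0.04 to 0.07 in siTGR5 cells with Bu, from -0.11 to 0.05 in siTGR5 cells with DMSO, from -0.09 to 0.04 in siGFP cells with Bu and from 0.0014 to 0.11 in siGFP cells with DMSO. The siGFP DMSO group was highest at the median (0.08), and the median of siGFP cells with Bu (-0.07) was near that of siTGR5 cells with DMSO (-0.07). The libraries farthest from the median of their group were siTGR5 Bu replicate 1 at -0.04, siTGR5 DMSO replicate 2 at 0.05, siGFP Bu replicate 4 at 0.04 and siGFP DMSO replicate 4 at 0.0014.

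**Figure D3:**
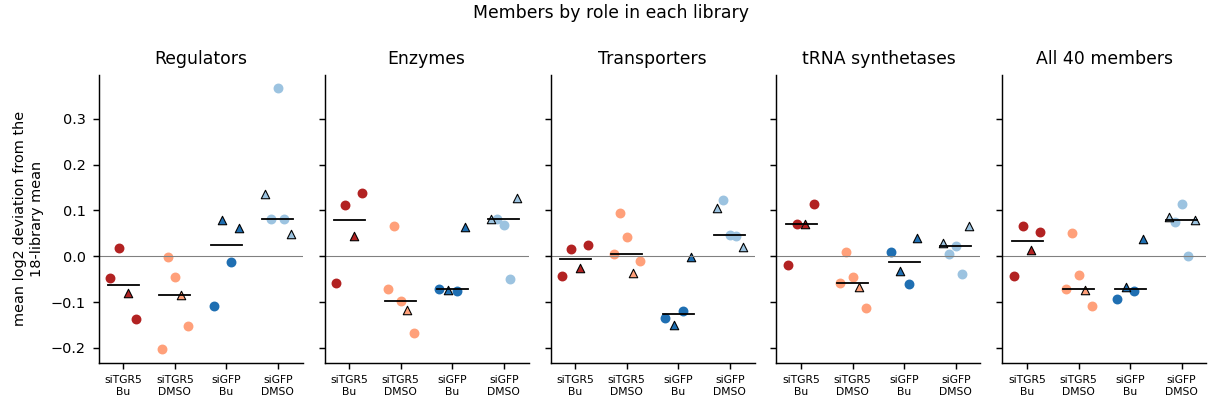
Mean log2 deviation of the members of 4 roles and of all 40 members from their mean over the 18 libraries, 1 point a library (triangles mark libraries with photoreceptor transcripts, lines the group median). Over all members the median is highest in siGFP cells with DMSO, and for tRNA synthetases the median is highest in siTGR5 cells with Bu.

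The siRNAs were also compared directly. These comparisons share libraries with those of Bu, since the DMSO and Bu groups are the same, so values are given side by side and not counted against each other. In DMSO, siTGR5 cells had 1 of 39 members higher and 16 lower than siGFP cells, where 13.8% of all 14292 genes were higher and 14.4% lower (28.3% called). Under Bu they had 7 higher and 1 lower, where 13.8% of 13971 genes were higher and 16.5% lower (30.3% called). The members' median log2 fold change was -0.09 in DMSO and 0.06 under Bu, beside 0.00080 and -0.0038 over all genes. The 16 comprised 4 regulators, 5 enzymes, 2 transporters and 5 synthetases. Without the libraries with photoreceptor transcripts 7 members were called lower in DMSO, 4 regulators and 3 enzymes, and edgeR called 0 synthetases and 0 transporters (3 and 2 lower at an unadjusted p under 0.05). That fit had 3 fewer libraries.

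**Figure D4:**
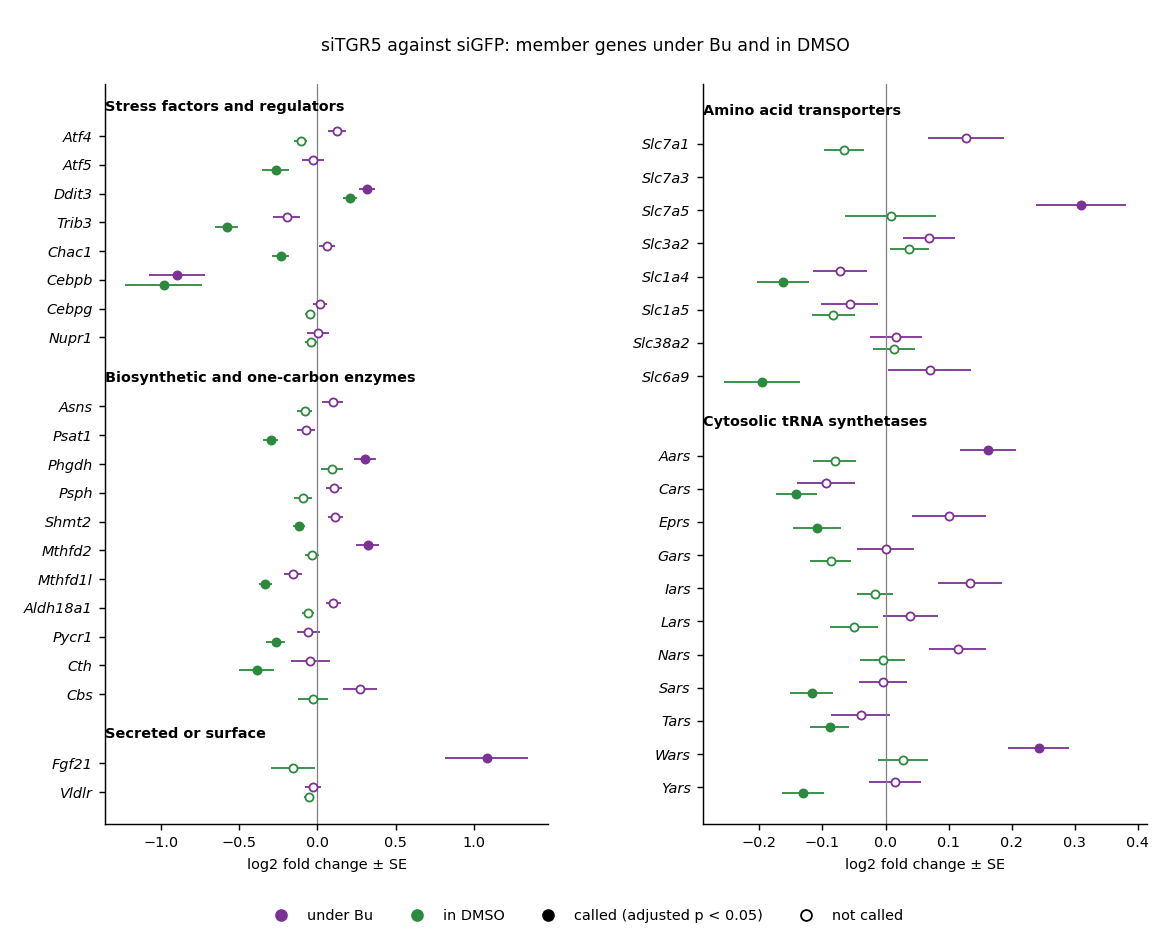
Log2 fold change (± SE) of siTGR5 against siGFP for the members, by role, under Bu (purple, upper point of each pair) and in DMSO (green, lower point); filled points passed an adjusted p under 0.05, Slc7a3 was not tested, and the horizontal scales of the panels differ. Ddit3 is higher and Cebpb lower in both, and the other filled points lie below zero in DMSO (green) and above zero under Bu (purple), each for its own comparison.

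Trib3 was lower in DMSO, where siTGR5 libraries (23.1 to 30.0 CPM) all lay below siGFP libraries (33.0 to 45.4 CPM), at 67.0% of their mean (log2 -0.58 ± 0.07, adjusted p = 2.75e-05). Mthfd1l (41.4 to 47.7 CPM in siTGR5 cells and 54.4 to 57.0 CPM in siGFP cells) and Psat1 (207 to 255 CPM and 263 to 292 CPM) did not overlap either, with log2 -0.33 ± 0.04 and -0.30 ± 0.05. Slc1a4, Cars and Yars completed the 6 members whose DMSO groups were apart, where 18.9% of all genes were. Cebpb was at 8.36, 13.8, 15.0, 14.4 and 9.65 CPM in siTGR5 cells and at 21.9, 19.8, 44.2, 23.0 and 12.9 CPM in siGFP cells. Its level was lower in siTGR5 cells with a wide spread among siGFP libraries (log2 -0.98 ± 0.24, adjusted p = 0.0065). Atf5, Chac1, Shmt2, Pycr1, Cth, Slc1a4, Slc6a9, Cars, Eprs, Sars, Tars and Yars were the other 12 members called lower, with log2 fold changes from -0.39 for Cth to -0.09 for Tars. The calls of Cth, Shmt2, Slc1a4, Slc6a9 and all 5 synthetases among them ended without the libraries with photoreceptor transcripts. With 1 library left out in turn, the calls of Shmt2 and Tars each ended in 7 of 10 fits. That of Eprs ended in 5, that of Atf5 in 4 and that of Slc6a9 in 3. The call of Atf5 also ended with DESeq2 (DESeq2 adjusted p = 0.069).

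Ddit3 was the regulator called higher in siTGR5 cells, with log2 0.21 ± 0.04 in DMSO (adjusted p = 0.00189) and 0.32 ± 0.05 under Bu (adjusted p = 0.000386). Under Bu, Cebpb was at 14.1, 13.0, 10.7 and 6.28 CPM in siTGR5 cells and at 17.5, 24.9, 21.9 and 17.4 CPM in siGFP cells, without overlap (log2 -0.90 ± 0.18, adjusted p = 0.00168). Fgf21 was at 1.58 to 2.49 CPM in siTGR5 cells and at 0.473 to 1.51 CPM in siGFP cells under Bu, 211% of the siGFP mean (log2 1.08 ± 0.26, adjusted p = 0.00625), also without overlap. Phgdh, the first enzyme of serine synthesis, was at 29.3, 27.9, 29.5 and 32.3 CPM in siTGR5 cells and at 22.5, 26.8, 21.2 and 25.2 CPM in siGFP cells under Bu, with every siTGR5 library higher (log2 0.31 ± 0.07, adjusted p = 0.00424). In DMSO it was at 28.7, 33.4, 25.8, 27.0 and 28.1 CPM with siTGR5 and at 28.5, 27.8, 29.0, 23.9 and 24.5 CPM with siGFP, with overlap and no call.

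Mthfd2 (log2 0.32 ± 0.07), Slc7a5 (0.31 ± 0.07), Wars (0.24 ± 0.05) and Aars (0.16 ± 0.04) were the other members higher in siTGR5 cells under Bu. Ddit3, Phgdh, Aars, Wars and Fgf21 were higher and Cebpb and Slc1a4 lower without overlap, 7 of 39 members, where 29.8% of all genes did not overlap. All 8 calls under Bu held without each library in turn, and that of Aars ended without the libraries with photoreceptor transcripts (adjusted p = 0.0655). Among transcripts of the nuclear-retained list 14 of 19 were higher and 1 lower in siTGR5 cells under Bu, and 5 higher and 1 lower in DMSO. Of all genes tested, 30.3% were called under Bu and 28.3% in DMSO. The part of these transcripts in the members' results was not tested.

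Other genes of the pathway did not share 1 direction. Of 42 further ATF4 targets tested, 9 rose and 7 fell in siTGR5 cells and 8 rose and 15 fell in siGFP cells. Of all genes tested, 15.5% rose and 15.2% fell in siTGR5 cells, and 14.3% rose and 13.8% fell in siGFP cells. Vegfa, an angiogenic growth factor, had log2 -0.08 ± 0.04 in siTGR5 cells and -0.51 ± 0.06 in siGFP cells, and Gtpbp2, a GTPase of ribosome rescue, had -0.04 ± 0.05 and -0.34 ± 0.06. Cdkn1a, also a target of p53, had 0.40 ± 0.06 and 0.53 ± 0.07. Of 21 genes that act on eIF2 or sense its phosphorylation, 7 rose and 2 fell with each siRNA. Eif2b5 and Eif2b1, subunits of the exchange factor of eIF2, had 0.14 ± 0.04 and 0.20 ± 0.04 in siTGR5 cells and 0.28 ± 0.04 and 0.24 ± 0.05 in siGFP cells. Of 20 other folate and glycine pathway genes, 5 rose and 3 fell in siTGR5 cells and 5 rose and 4 fell in siGFP cells. These lists did not share the direction of the 40 members in the difference of Bu effects. Above zero stood 24 of the 42 ATF4 targets (median 0.04, 2 called higher and 1 lower), where 51.4% of all genes did. The same held for 9 of the 21 eIF2 genes and 8 of the 20 folate and glycine genes, with 0 called in either.

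Members were called both with and without the promoter motif. Of the 13 members with a match, 4 rose and 1 fell in siTGR5 cells and 5 fell in siGFP cells. Of the 19 members searched without a match, 6 rose and 1 fell in siTGR5 cells, and 1 rose and 4 fell in siGFP cells. In the same order of cells, 30.7% and 28.1% of all genes tested were called. Per kilobase of the transcript length in the table, members ranged from 457 CPM for Psat1 and 430.3 CPM for Slc3a2 to 6.69 CPM for Cbs, 1.74 CPM for Fgf21 and 0.0863 CPM for Slc7a3, as means over the 18 libraries. This length is the authors' median over a gene's transcripts and can be short (588 bases for Psat1), so that the order is rough.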

How the data were processed

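The authors made 50-base single-end poly(A) libraries from the 18 samples, and their deposited table holds raw counts per gene of uniquely aligned reads, counted with HTSeq on mouse build GRCm38 (mm10) with Ensembl release 77. The paper names Hisat2 2.1.0 for alignment and the submitters' processing notes name TopHat2, with Bowtie2 2.1.0 in both. Whether the count used strand is not given in the sources used here. A further 36 per-sample columns of normalized values and 9 columns of the authors' own fold changes and p-values were not used.

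Counts were tested with the edgeR 4.0.16 quasi-likelihood F-test in R 4.3.3 after TMM scaling and filterByExpr (at least 10 counts in enough libraries, 15 in all), on the groups compared and without covariates. Benjamini-Hochberg adjustment covered all genes tested, with calls at an adjusted p under 0.05, and an SE is the absolute log2 fold change over the square root of F. The difference of Bu effects was a contrast of the 4 groups in 1 fit. Every adjusted p in the report is edgeR's unless DESeq2 is named. Exact two-sided permutation tests over libraries used log2(CPM + 0.5). Replicates differed by more than sampling noise (lowest chi-square per degree of freedom 2.92 over 32 pairs). Alternatives were RLE size factors, DESeq2 1.42.0, other filters, all 18 libraries in 1 fit, a block for replicate number, and fits without 1 library in turn or without those with at least 1 CPM over rod markers. The fits were tested on simulated data with 46 to 50 changed genes at each effect size. At a true log2 of 0.2, 8.16% were recovered for the difference of Bu effects and 22.9% to 34% in the other comparisons. At 0.4 these shares were 72% and 60.9% to 78.3%. Unchanged genes made up 2.74% to 6.67% of the calls. Changed genes were a small share of those simulated, whereas 28.1% to 30.7% of genes were called in the data outside the difference of Bu effects. The simulated shares may therefore not hold for those comparisons. A member that was not called may still have changed by a log2 of 0.2 or 0.4. Sequences are from RefSeq, build GRCm38.p6; exon overlap is from GENCODE M21, and figures were drawn with matplotlib 3.10.9.

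The members and gene lists were chosen with earlier results of these data known. Values by library were given for Atf4, Ddit3, Trib3, Chac1 and Asns and for the 3 called members with the smallest p in each direction of each comparison. Of other lists at most 3 genes were named, those called in siGFP cells with the smallest p. Some items are not reported here.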

Additional observations from a re-analysis of the deposited data

Results flagged for a closer look

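Library values were examined for a highest or lowest library far from the rest of its group. Of 72 groups over 18 genes, 6 held such a library by Dixon's criterion, where chance gives about 1 in 20 groups. Aars was at 299.76 CPM in siTGR5 Bu replicate 1, against 334 to 336 CPM in the other libraries of that group. Fgf21 was at 2.177 CPM in siTGR5 DMSO replicate 2, against 1.42 to 1.55 CPM. In siGFP Bu replicate 4, Trib3 was at 38.383 CPM, against 30.3 to 31.5 CPM, and Mthfd2 at 59.872 CPM, against 46.7 to 48.0 CPM. Among siGFP DMSO libraries, Ddit3 was at 47.295 CPM in replicate 5, against 41.8 to 43.4 CPM, and Cbs at 3.9488 CPM in replicate 3, against 5.26 to 5.75 CPM.

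The Bu effect differed between the siRNAs by the test of the difference itself for Aars (0.25127, siTGR5 minus siGFP, log2), Fgf21 (1.2469) and Mthfd2 (0.36522). For each of the 3 genes, a library that stood apart as above was among those compared. Each call held when that library was left out and ended without certain others. These were siTGR5 Bu replicate 1 for Aars, siTGR5 DMSO replicate 2 for Fgf21 and siGFP Bu replicate 4 for Mthfd2. None of the 3 differences passed the test without the 6 libraries with photoreceptor transcripts.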

How the results depend on the processing

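The tests were repeated with other settings. Without the libraries with photoreceptor transcripts, 0 members were called higher under Bu in siGFP cells, 0 for the difference of Bu effects and 7 lower in siTGR5 cells in DMSO. In that order, these fits had 4, 6 and 3 fewer libraries. For the difference of Bu effects DESeq2 called 6 members higher and fits with no filter on low counts 13, and all genes called numbered 203, 386 with DESeq2, 411 with no filter and 12 without the photoreceptor libraries. For siTGR5 against siGFP under Bu, 11 members were called higher and 3 lower with no filter, 11 and 2 with all 18 libraries in 1 fit, and 3 lower with the replicate block.

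Leaving out 1 library gave 8 (without siTGR5 Bu replicate 4) to 20 members higher and 3 lower under Bu in siTGR5 cells, and 1 higher and 9 to 14 lower in siGFP cells. It gave 0 (without siTGR5 Bu replicate 2, 3 or 4) to 8 higher for the difference, 1 higher and 11 to 20 lower for siTGR5 in DMSO, and 7 to 13 higher and 1 to 3 lower under Bu. Calls that held without each library in turn numbered 10 of 16 under Bu in siTGR5 cells, 9 of 12 in siGFP cells, 0 of 3 for the difference, 12 of 17 for siTGR5 in DMSO and 8 of 8 under Bu. Directions turned for Ddit3 under Bu in siTGR5 cells without siTGR5 Bu replicate 4 (-0.00099927) or siTGR5 DMSO replicate 3 (-0.00063951; up to 0.054203 without siTGR5 DMSO replicate 5), and for Asns in siGFP cells with the replicate block (0.0012025), none of them called. The cause of these changes was not tested.

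Samples with the same replicate number did not deviate together, with correlations from -0.197 to 0.186 over the pairs, so the numbers were not taken to pair them. With the replicate block 11 members rose and 3 fell under Bu in siTGR5 cells, 1 rose and 11 fell in siGFP cells, 4 were higher for the difference, 1 higher and 16 lower for siTGR5 in DMSO, and 9 higher and 3 lower under Bu. Counts of Slc7a3 and Fgf21 were low, and 2 members share over 20% of their exon bases with other genes.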
